A study of Mus musculus with 7 samples.

Results

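The pluripotent cells made with 5C medium were moved to primed medium, and the RNA-seq library of the resulting cells, 5C-Oct4GFP+ (primed), was compared with that of their starting cells, 5C-Oct4GFP+. These are 2 of the 7 libraries of the series, and the comparison covered 11582 of the 29267 genes in the tables, namely those with at least 5 TPM (a transcript level scaled for length and library size) in either library. The question was how the transcriptome of such cells looks once they are held under conditions for primed pluripotency.

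The 5C-Oct4GFP+ cells were reprogrammed from mouse embryonic fibroblasts (MEFs) of OG2 mice, which carry a GFP reporter under an Oct4 (Pou5f1) promoter fragment, GOF18ΔPE, that keeps the distal enhancer. Oct4, Sox2, Klf4 and c-Myc were delivered by retroviruses, the cells were kept in 5C medium, a serum-free mixture with N2, bFGF, LIF and vitamin C, and GFP-positive cells were sorted at passage 0. The 5C-Oct4GFP+ (primed) cells descended from such cells moved to primed medium, and their label gives 20 passages. A description of the same RNA-seq in the study gives a culture of only a few days for the primed and naive cells, so the time in either medium is uncertain. Primed medium held N2, B27, bFGF and activin A over MEF feeders at first, and CHIR99021 with IWR-1, a GSK3 inhibitor and a tankyrase inhibitor, for maintenance. Both libraries therefore carry the same reporter and the same retroviral factors, and the tables do not separate retroviral from endogenous transcripts of the 4 factors. Whether the primed cells were a clone or a pool was not given in the sources used here. Medium, number of passages and sorting differ together between the libraries, so their parts in any difference cannot be told apart.

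Some values are set beside the other libraries of the series. R1 ESCs-primed came from the R1 embryonic stem cell line after 20 passages in primed medium and carries none of the retroviruses. The 5C-Oct4GFP+ (naive) cells were moved to 2i and LIF medium and are labelled with 20 passages, and mES-Oct4GFP+ cells were reprogrammed in serum-based mES medium and sorted at passage 0. The 5C-Oct4GFP- and mES-Oct4GFP- cells are the GFP-negative fractions of OG2 MEFs given the same retroviral factors. They were kept in 5C and mES medium and sorted at passage 0. The deposited expected counts summed to 11496615 in the primed cells and 10443952 in the 5C-Oct4GFP+ cells, and 1 read of a gene of median length was worth 0.0712 and 0.0794 TPM. Each group is 1 library, so no difference could be tested against the spread between cultures. Beside a fold (the ratio of the 2 TPM values) the range in brackets is the exact 95% Clopper-Pearson interval of the count ratio, which covers counting error only. A gene without reads in 1 library has a bound against a floor of 3 counts in that library.

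Pluripotent mouse cells can be held in a naive state, which resembles the preimplantation epiblast, or in a primed state, which resembles the epiblast before and during gastrulation. Naive cells depend on LIF acting through Stat3 and express Zfp42 (Rex1), Esrrb and Klf factors. Primed cells depend on FGF and activin or Nodal, express Fgf5 and Otx2, and express early lineage genes such as T, while both states express Pou5f1.

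Of the genes compared, 1393 (12%) were higher and 1690 (14.6%) were lower in the primed cells by at least 2-fold, here and below a difference of at least 1 in log2(TPM + 1). The median difference over all genes compared was 0.06. Each count of higher or lower genes in a list or family below is to be read beside these 12% and 14.6%. A gene near 0 in either library entered the comparison only through the other library. If near 0 in the 5C-Oct4GFP+ cells it could only be higher, and if near 0 in the primed cells only lower. Losses were the larger changes: 420 genes were at least 8-fold lower against 151 at least 8-fold higher, and 387 genes fell from 5 TPM or more to below 1 TPM while 198 rose from below 1 TPM to 5 TPM or more. Close to the limits, Ctnnbip1 with 17.2 TPM in 5C-Oct4GFP+ cells and 35.4 TPM in primed cells counted as higher and Lrp8 with 13.1 and 27.1 TPM did not. Mal, whose higher value was 4.99 TPM, was left out of the comparison, and C1qtnf1 with 5 and 0.96 TPM entered it.

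**Figure D1:**
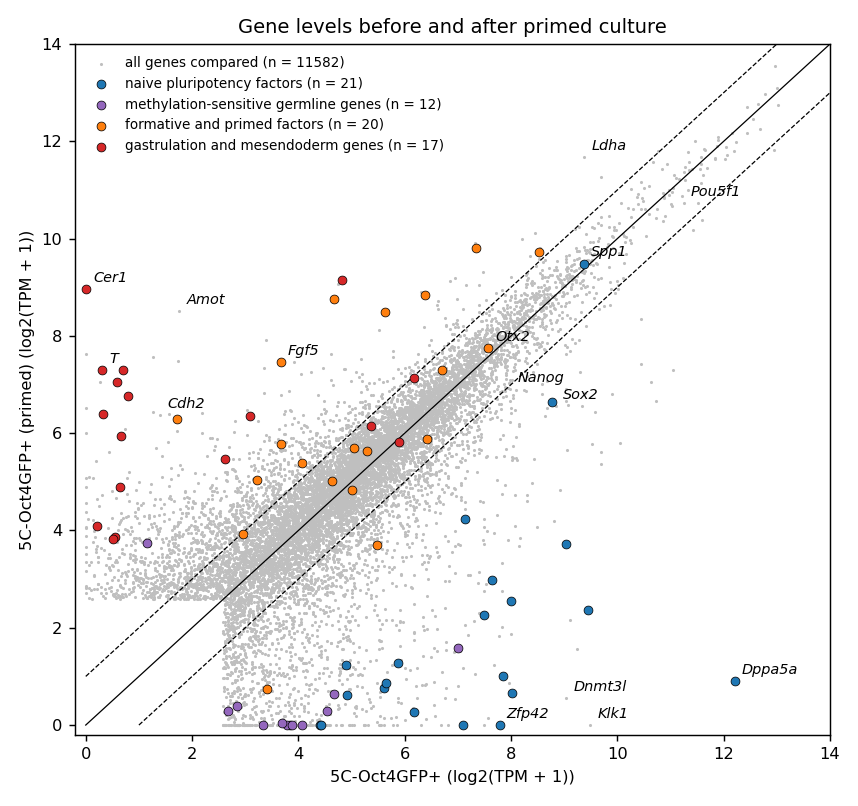
Level of each gene compared in 5C-Oct4GFP+ cells (x axis) and in 5C-Oct4GFP+ (primed) cells (y axis), both as log2(TPM + 1), with the members of 4 gene lists in colour. The solid line marks equal levels and the dashed lines a 2-fold difference on this scale. The naive factors lie below the lower dashed line except Spp1, and 14 of 17 mesendoderm genes lie above the upper dashed line.

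The largest single decrease was that of Dppa5a, an RNA-binding protein of pluripotent cells, which fell from 4714 to 0.87 TPM, 5419-fold lower (1845 to 26159). Zfp42 (Rex1), a standard marker of the naive state, had 219 TPM in 5C-Oct4GFP+, 0 in 5C-Oct4GFP+ (primed), 6.02 in R1 ESCs-primed, 355 in 5C-Oct4GFP+ (naive) and 337 in mES-Oct4GFP+ cells, and the GFP-negative fractions 5C-Oct4GFP- and mES-Oct4GFP- had 14.1 and 1.31 TPM. It was thus lowest in the primed cells, with no read, at least 795-fold lower than in the 5C-Oct4GFP+ cells. Also among the 15 largest decreases were Fbxo15, an F-box gene (from 258 to 0.58 TPM, 445-fold lower (189.6 to 1367)), Nr0b1, a nuclear receptor (from 136 TPM to 0, at least 493-fold lower), Esrrb, an orphan nuclear receptor (from 229.7 to 1 TPM, 229.7-fold lower (156 to 351)), Dppa4 (from 259.7 to 0.54 TPM, 481-fold lower (204 to 1471)), Morc1 (from 189.6 to 0.11 TPM, 1723-fold lower (491 to 14666)), Rbmxl2 (from 179 TPM to 0, at least 526-fold lower), Gstp2 (from 602 to 1.96 TPM, 307-fold lower (154 to 642)), Gpa33 (from 248 to 0.83 TPM, 299-fold lower (172 to 582)) and Sept1 (from 548 to 3.47 TPM, 158-fold lower (103 to 255)). Gstp2 has close copies in the genome that can share reads, so its value is uncertain.

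Another set of the largest decreases had been high in the 5C-Oct4GFP+ cells and low in the naive cells of the other media. Dnmt3l, the catalytically inactive partner of the de novo DNA methyltransferases, had 525 TPM in 5C-Oct4GFP+, 0.47 in primed, 16 in R1 ESCs-primed, 20.2 in 5C-Oct4GFP+ (naive) and 5.31 in mES-Oct4GFP+ cells. Klk1, a kallikrein serine protease, had 717, 0, 0, 11.9 and 13.1 TPM in the same order, and Aire, the transcriptional regulator best known from the thymus, had 112, 0, 0.52, 0 and 0 TPM. Aire and Dnmt3l overlap on opposite strands. Without a stated strand in the counting, their reads cannot be told apart there, so the value of Aire is uncertain. All of the 15 largest decreases left at most 4.18 TPM in the primed cells, the value of Tdh.

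The largest increase was that of Cer1, a secreted inhibitor of Nodal, BMP and Wnt made by anterior endoderm, which went from no read to 497 TPM, at least 1575-fold higher. T (Brachyury), the T-box factor of the primitive streak, had 0.24 TPM in 5C-Oct4GFP+, 155 in primed, 374 in R1 ESCs-primed, 14.5 in 5C-Oct4GFP+ (naive) and 6.93 in mES-Oct4GFP+ cells, and the GFP-negative fractions 5C-Oct4GFP- and mES-Oct4GFP- had 26.6 and 9.96 TPM. Both primed libraries lay above every other library for this gene. Cyp26a1, which degrades retinoic acid, rose from 0.21 to 132 TPM, 627-fold higher (176 to 5276), and Amot, a Hippo pathway scaffold, rose from 2.38 to 364 TPM, 153-fold higher (118 to 202). Other genes among the 15 largest increases were Mgp, a matrix protein (from 0 to 91.2 TPM, at least 91-fold higher), Flt1, a VEGF receptor (from 0.66 to 66.8 TPM, 101-fold higher (63.7 to 170.4)), Pkdcc, a secreted protein kinase (from 2.33 to 177 TPM, 75.9-fold higher (47.9 to 128)), Klhl4 (from 0 to 63.1 TPM, at least 413-fold higher) and the predicted gene Gm20721 (from 0 to 196 TPM, at least 527-fold higher). Pgk1-rs7, a Pgk1-related sequence (from 1.4 to 188 TPM, 134-fold higher (79.9 to 258)), shares sequence with Pgk1, so its value is uncertain.

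The 250 bases before the RefSeq start of the 3 protein-coding genes with the largest decreases and the 3 with the largest increases that have an entry in the RefSeq promoter table (GRCm38.p6) are shown 5′ to 3′ on the strand of the gene, with CpG dinucleotides, the sites of DNA methylation, in capitals. The first 3 belong to genes that were lost and the last 3 to genes that were gained.
Klk1: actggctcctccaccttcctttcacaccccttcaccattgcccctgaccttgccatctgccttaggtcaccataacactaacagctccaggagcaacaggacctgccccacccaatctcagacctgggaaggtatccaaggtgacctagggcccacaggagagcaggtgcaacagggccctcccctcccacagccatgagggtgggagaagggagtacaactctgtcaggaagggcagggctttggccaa
Dnmt3l: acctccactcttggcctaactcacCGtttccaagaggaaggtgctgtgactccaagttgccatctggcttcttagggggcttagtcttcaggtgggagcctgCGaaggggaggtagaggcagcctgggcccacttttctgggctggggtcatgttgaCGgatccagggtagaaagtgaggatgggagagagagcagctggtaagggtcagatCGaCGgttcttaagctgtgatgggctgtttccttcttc
Zfp42: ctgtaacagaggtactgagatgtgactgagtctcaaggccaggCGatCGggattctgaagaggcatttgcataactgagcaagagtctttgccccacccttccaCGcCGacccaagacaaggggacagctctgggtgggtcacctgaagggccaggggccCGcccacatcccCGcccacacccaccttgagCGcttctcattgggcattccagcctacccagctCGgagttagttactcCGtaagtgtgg
Cer1: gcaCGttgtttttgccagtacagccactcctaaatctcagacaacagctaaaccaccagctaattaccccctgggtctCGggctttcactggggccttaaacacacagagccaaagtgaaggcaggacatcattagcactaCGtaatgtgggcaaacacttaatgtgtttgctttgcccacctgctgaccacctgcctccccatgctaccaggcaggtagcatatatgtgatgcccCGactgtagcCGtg
T: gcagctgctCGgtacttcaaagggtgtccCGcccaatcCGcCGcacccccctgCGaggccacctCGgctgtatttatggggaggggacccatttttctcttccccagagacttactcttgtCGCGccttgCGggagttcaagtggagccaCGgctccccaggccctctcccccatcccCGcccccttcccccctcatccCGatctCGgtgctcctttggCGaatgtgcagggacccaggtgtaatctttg
Cyp26a1: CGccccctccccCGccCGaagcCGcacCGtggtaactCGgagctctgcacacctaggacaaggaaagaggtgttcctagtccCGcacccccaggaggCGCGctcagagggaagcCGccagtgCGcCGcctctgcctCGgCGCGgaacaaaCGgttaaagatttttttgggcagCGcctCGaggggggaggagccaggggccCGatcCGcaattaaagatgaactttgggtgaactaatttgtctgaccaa
For Dnmt3l the RefSeq start lies 340 bases inside the gene as GENCODE annotates it, so the stretch shown is within that annotation of the gene. The 6 stretches lie at chr7:44225110-44225359 (plus strand), chr10:78042037-78042286 (plus), chr8:43307010-43307259 (minus), chr4:82885152-82885401 (minus), chr17:8434173-8434422 (plus) and chr19:37697558-37697807 (plus). They hold 0, 5, 9, 5, 14 and 20 CpGs in that order, against a median of 6 in the same stretch of all 32851 promoters in the table. Of 4 motifs searched on both strands, none of which overlaps another, the octamer ATTTGCAT, which POU factors such as Oct4 bind, occurs in that of Zfp42, and the E-box CACGTG, the E2F motif GCGGGAA and the TCF motif CTTTGAT occur in none of the 6. In the 300-base windows of the table, ATTTGCAT was found in 1.74%, CACGTG in 7.15%, GCGGGAA in 4.6% and CTTTGAT in 3.73% of promoters. A comparison of CpG content between higher and lower genes was void, since only 75.5% of the higher and 70.7% of the lower genes had a promoter in the table.

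Naive pluripotency factors were lower almost throughout. Of 21 naive pluripotency factors compared, 20 were lower and none was higher, with a median difference of -4.85 in log2(TPM + 1) against 0.06 over all genes. Klf2 fell from 254 to 4.84 TPM, 52.4-fold lower (40 to 70), Klf4 from 522 to 12.2 TPM, 43-fold lower (37 to 50.1) and Klf5 from 139 to 17.9 TPM, 7.77-fold lower (6.65 to 9.11). These zinc finger factors act together to hold the naive state, and Klf4 was also among the retroviral factors. Klf5 kept the highest level of the 3 in primed cells, close to its 13.2 TPM in R1 ESCs-primed. Outside the rule for named genes, and chosen after their values were seen, Dppa3 fell from 71.2 to 0.21 TPM, 339-fold lower (60.7 to 13493), Tbx3 from 48 to 0.7 TPM, 68.6-fold lower (41.2 to 123), Prdm14 from 20.5 TPM to 0, at least 107-fold lower and Pecam1 from 28.6 to 1.36 TPM, 21-fold lower (13.3 to 34.3). The exception was Spp1 (osteopontin), a secreted phosphoprotein, with 661 and 717 TPM (ratio 1.08, 1.04 to 1.13). In bulk RNA, fewer cells that express a gene and less RNA per cell cannot be told apart, here and in every later result.

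General pluripotency factors stayed in part and fell in part. Of 16, 1 was higher, 6 were lower and 9 lay within 2-fold (median difference -0.55), beside 12% higher and 14.6% lower over all genes compared. Pou5f1, the gene of Oct4, had 2429 TPM in 5C-Oct4GFP+, 1698 in primed, 1503 in R1 ESCs-primed, 1698 in 5C-Oct4GFP+ (naive) and 1321 in mES-Oct4GFP+ cells. The ratio of its primed to its starting level was 0.699 (0.684 to 0.715). Sall4, a zinc finger partner of Oct4, had 120.5 and 136 TPM (ratio 1.13, 1.07 to 1.19), and Utf1, a chromatin protein of undifferentiated cells, had 1034 and 528 TPM (ratio 0.51, 0.49 to 0.531). Sox2 fell from 459 to 92.8 TPM, 4.95-fold lower (4.67 to 5.25) and Nanog from 253 to 118 TPM, 2.14-fold lower (2.01 to 2.27), and their levels in R1 ESCs-primed were 81.2 and 131 TPM. Lin28a, which blocks maturation of let-7 microRNAs, rose from 109 to 299 TPM, 2.75-fold higher (2.62 to 2.89). Dppa2 and Dppa4, paired chromatin factors, were lost, with Dppa2 falling from 63.2 to 1.27 TPM, 49.7-fold lower (29.9 to 89.2).

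Formative and primed factors fell into those already present in the starting cells and those gained. Of 20 compared, 10 were higher and 2 lower (median difference 1.09). Otx2, a homeobox factor of the early postimplantation epiblast, had 189 TPM in 5C-Oct4GFP+, 214 in primed, 134 in R1 ESCs-primed, 1.15 in 5C-Oct4GFP+ (naive) and 0.41 in mES-Oct4GFP+ cells. Pou3f1, a POU factor, had 32.1, 51, 62.6, 0.9 and 0.48 TPM in that order, and Zic2 had 103, 157, 163, 24.1 and 33.5 TPM. For these genes the 5C-Oct4GFP+ cells were closer to the primed libraries than to the naive and mES-Oct4GFP+ libraries before any primed culture. Fgf5, the FGF ligand most used as a primed marker, rose from 11.7 to 175 TPM, 14.9-fold higher (12.7 to 17.6), from a starting level above the 0.09 and 0.12 TPM of the naive and mES-Oct4GFP+ cells. Sox3 rose from 8.27 to 32 TPM, 3.87-fold higher (3.09 to 4.9), Car14, a carbonic anhydrase, from 2.27 to 77.7 TPM, 34.2-fold higher (21.3 to 57.5), and Krt8, a simple-epithelium keratin, from 24.6 to 434 TPM, 17.7-fold higher (15.5 to 20.2). The 2 that were lower were Meis2 (from 9.61 to 0.68 TPM, 14.1-fold lower (7.82 to 27.7)) and Grhl2, an epithelial transcription factor (from 43.7 to 11.9 TPM, 3.66-fold lower (3.22 to 4.16)).

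**Figure D2:**
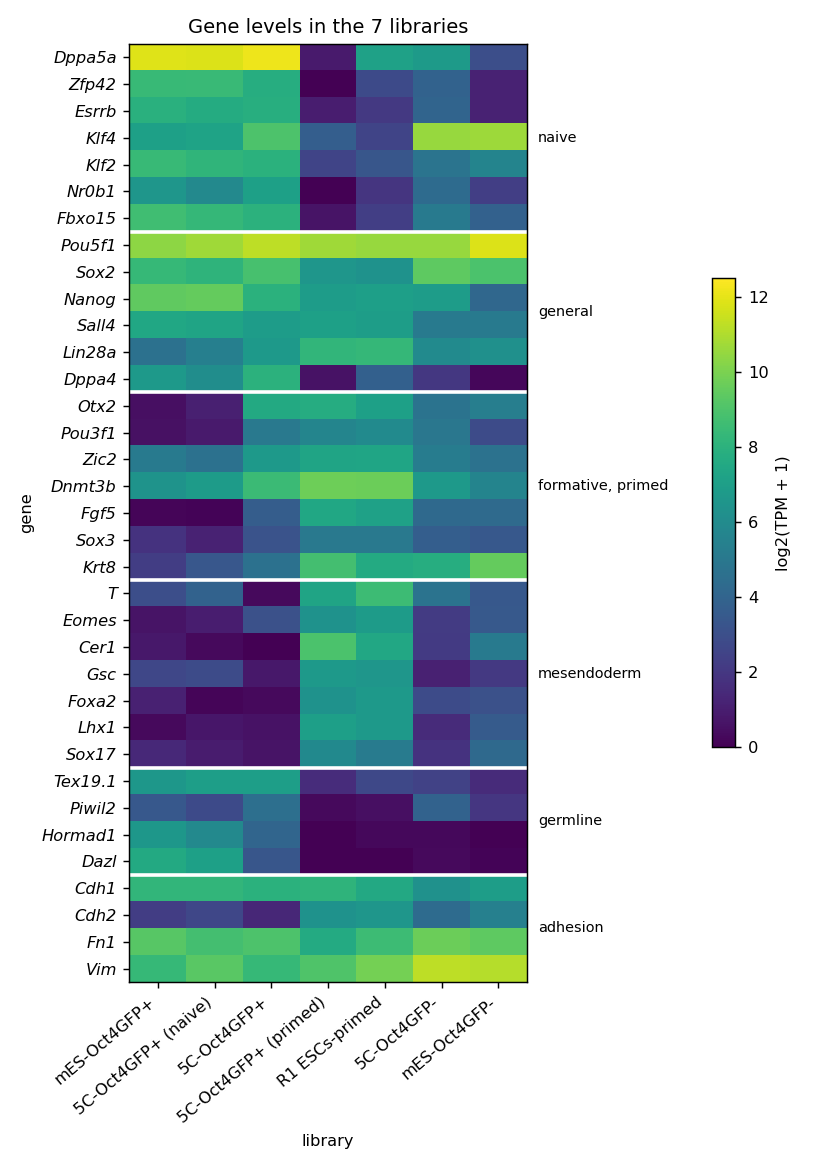
Level of 35 genes of 6 groups (rows) in the 7 libraries (columns) as log2(TPM + 1), given by colour. The naive and germline rows are dark in both primed libraries, except that Dppa5a is brighter in R1 ESCs-primed. The mesendoderm rows are brighter in both primed columns than in the 5C-Oct4GFP+, naive and mES-Oct4GFP+ columns. The 5C-Oct4GFP+ column shares bright Otx2, Pou3f1 and Zic2 rows with the primed columns.

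Most of the compared gastrulation genes were higher. Of 22 found, 17 were compared, of which 14 were higher and none was lower, with a median difference of 4.26. The median level of the 22 in 5C-Oct4GFP+ cells was 0.575 TPM. A gene near 0 there could enter the comparison only through its primed level and could then only be higher. The count therefore says little about the members that were not compared. Eomes, a T-box factor of mesendoderm, rose from 7.49 to 81.2 TPM, 10.8-fold higher (9.16 to 12.9). Gsc, of the organizer, rose from 0.73 to 107 TPM, 147-fold higher (62.3 to 451), Lhx1 from 0.51 to 131 TPM, 257-fold higher (71.8 to 2145), Foxa2, of endoderm and axial mesoderm, from 0.25 to 82.9 TPM, 332-fold higher (59.5 to 13129.8) and Mixl1 from 0.16 to 16.1 TPM, 101-fold higher (27.9 to 848). Their levels in R1 ESCs-primed were 115, 92.5, 104, 106 and 36.5 TPM, so none of them was found in the converted cells alone. Of 9 primitive endoderm genes compared, 5 were higher and 1 was lower. The increases were led by Sox17 (from 0.59 to 60.4 TPM, 102-fold higher (34.9 to 498)), Foxq1 (from 0.14 to 42 TPM, 299.6-fold higher (85.2 to 2556)) and Gata6 (from 0.56 to 28.8 TPM, 51.5-fold higher (27.7 to 108)), transcription factors also expressed in definitive endoderm, whereas the laminin chain gene Lama1 fell from 26.4 to 1.09 TPM, 24.2-fold lower (18.8 to 31.5).

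Neural and trophoblast genes moved in both directions. Of 12 neural and neural crest genes compared, 7 were higher and 2 lower. Nes, an intermediate filament gene of progenitor cells, rose from 9.26 to 112 TPM, 12.1-fold higher (10.8 to 13.6), Six3 from 0 to 6 TPM, at least 30-fold higher and Hesx1 from 2.13 to 19.8 TPM, 9.3-fold higher (5.25 to 17.9), whereas Foxd1 fell from 40.3 to 0.27 TPM, 149-fold lower (58.7 to 557) and Crabp2, a carrier of retinoic acid, from 179 to 12.2 TPM. The neural determinants Sox1 and Pax6 had 2.94 and 0.23 TPM and 0.95 and 0.11 TPM, under the limit of the comparison. Of 7 trophoblast genes compared, 4 were lower, among them Tfap2c, which is also a naive and germline factor (from 29.4 to 3.39 TPM, 8.66-fold lower (6.5 to 11.7)), and the X-linked homeobox genes Rhox5 (from 71.3 to 2.69 TPM, 26.5-fold lower (14.6 to 53.7)) and Rhox6 (from 8.23 TPM to 0, at least 16.2-fold lower). Cdx2 had 0 and 0.07 TPM, against 16.3 TPM in the naive and 10.6 TPM in the mES-Oct4GFP+ cells. None of 28 Hox genes and none of 11 genes of the Zscan4 and Pramel families reached 5 TPM in either library.

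The ligands, receptors and targets of the pathways that the media act on were then examined, beginning with FGF. Of 25 FGF and ERK genes compared, 3 were higher and 8 lower, beside 12% higher and 14.6% lower over all genes compared. Among ligands, Fgf4, the autocrine FGF of naive cells, fell from 199 to 6.93 TPM, 28.7-fold lower (24 to 34.5), while Fgf8, of the primitive streak, rose from 0.63 to 157 TPM, 249-fold higher (68.8 to 2062). Immediate early targets of ERK were high in the 5C-Oct4GFP+ cells: Fos fell from 228 to 9.05 TPM, 25.2-fold lower (20.8 to 30.7) and Junb from 209 to 44.6 TPM, 4.69-fold lower (4.25 to 5.19), and Egr1, named after its values were seen, from 253 to 83.8 TPM, 3.02-fold lower (2.85 to 3.2). Their levels in R1 ESCs-primed were 6.37, 38.5 and 64.9 TPM, in the naive cells 1.87, 16.7 and 0.5 TPM, and Fos and Egr1 had 1.33 and 0.32 TPM in the mES-Oct4GFP+ cells, where Junb was likewise below both libraries compared.

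The LIF pathway was lower along most of its length. Of 16 genes compared, 11 were lower and 1 higher (median difference -2.10), although Klf4, Tfcp2l1 and Gbx2 also count as naive factors. The receptor Lifr fell from 31.6 to 7.1 TPM, 4.44-fold lower (3.92 to 5.06), its co-receptor Il6st (gp130) from 31.8 to 14.5 TPM, 2.19-fold lower (1.97 to 2.44) and the transducer Stat3 from 52.5 to 21.8 TPM, 2.41-fold lower (2.16 to 2.69). Among targets, Socs3, the feedback inhibitor, fell from 149 to 7.54 TPM, 19.8-fold lower (16.3 to 24.2), Gbx2 from 57.8 to 1.42 TPM, 40.7-fold lower (26.1 to 70.6) and Tfcp2l1 from 29.1 to 0.54 TPM, 53.8-fold lower (38 to 80.1). Named after their values were seen, Pim1, a kinase gene, fell by 2.20 in log2(TPM + 1), and the inhibitors Socs1 and Socs2 lay within 2-fold, with differences of -0.85 and -0.43. Jak1 had 29.5 and 28.5 TPM (ratio 0.966, 0.876 to 1.07), and Jak2 was the member that rose (from 2.16 to 8.85 TPM, 4.1-fold higher (3.09 to 5.52)).

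In the Nodal and activin pathway, 5 of 20 genes were higher and 2 lower, beside 12% higher and 14.6% lower over all genes compared. The ligand, its co-receptor and its receptor lay within 2-fold: Nodal had 40.3 and 70.1 TPM (ratio 1.74, 1.55 to 1.95), its co-receptor Tdgf1 (Cripto) 709.5 and 476 TPM (ratio 0.671, 0.648 to 0.695) and the receptor Acvr1b 22.7 and 22 TPM (ratio 0.969, 0.862 to 1.09). Lefty1, a feedback inhibitor, rose from 27.1 to 564 TPM, 20.8-fold higher (18.1 to 24.1), but its neighbour in function Lefty2 had 58.1 and 55.4 TPM (ratio 0.955, 0.865 to 1.05). The convertase gene Pcsk6 fell from 20.8 to 6.02 TPM, 3.45-fold lower (2.86 to 4.17). Of 14 BMP genes, 6 were higher and 3 lower. The ligands diverged, with Bmp4 falling from 14.1 to 2.71 TPM, 5.21-fold lower (3.5 to 8) and Bmp2 rising from 0.1 to 17.6 TPM, 176-fold higher (48 to 1448). Chrd (chordin), an extracellular BMP inhibitor, rose from 3.57 to 84 TPM, 23.5-fold higher (18.4 to 30.5), and Id2, a target, fell from 80.8 to 31.6 TPM, 2.56-fold lower (2.19 to 2.99).

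Wnt genes were higher in 12 of 27 cases and lower in 2. Lgr5, an R-spondin receptor, rose from 0.04 to 33.1 TPM, 827-fold higher (157 to 34671), the inhibitor Dkk1 from 0 to 28.7 TPM, at least 129-fold higher and the target Sp5 from 0.43 to 13.2 TPM, 30.8-fold higher (12.9 to 95.7). Axin2, a direct target of the pathway, had 4.98 and 10 TPM (ratio 2.01, 1.57 to 2.59), and the transcription factor Lef1 31.2 and 27.4 TPM (ratio 0.879, 0.777 to 0.992). In the naive cells Axin2 had 105 and Sp5 149.6 TPM and in the mES-Oct4GFP+ cells 98.3 and 116 TPM, all above both libraries compared. Notum, a secreted Wnt deacylase, fell from 96.4 to 1.89 TPM, 51-fold lower (28.4 to 96.8).

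In the retinoic acid pathway, 5 of 9 genes were higher and 1 was lower. Beside Cyp26a1, the receptor Rxrg rose from 0.34 to 15.5 TPM, 45.6-fold higher (15.4 to 225), while the carrier Crabp2 was the gene that fell. In the Notch pathway, 5 of 13 were higher and 3 lower: the receptor Notch1 (from 31.3 to 8.06 TPM, 3.88-fold lower (3.48 to 4.33)), the ligand Dll1 (from 11.1 to 2.39 TPM, 4.64-fold lower (3.33 to 6.48)) and the DNA-binding effector Rbpj (from 183 to 44.3 TPM, 4.13-fold lower (3.9 to 4.38)) fell, and the targets Hes1 (from 60.3 to 149.9 TPM, 2.49-fold higher (2.22 to 2.79)), Hey1 (from 4.82 to 14.5 TPM, 3.01-fold higher (2.22 to 4.12)) and Nrarp (from 4.33 to 16.7 TPM, 3.85-fold higher (2.91 to 5.16)) rose. Of 13 Eph receptors and ephrins, which act in cell sorting, 5 were higher, led by Epha1 (from 11.7 to 109 TPM, 9.29-fold higher (8.06 to 10.7)), Efna2 (from 1.45 to 18.6 TPM, 12.8-fold higher (7.87 to 22.4)) and Epha7 (from 2.7 to 21.8 TPM, 8.07-fold higher (6.2 to 10.6)), and Epha4 was lower (from 37.2 to 7.52 TPM, 4.94-fold lower (4.12 to 5.97)).

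**Figure D3:**
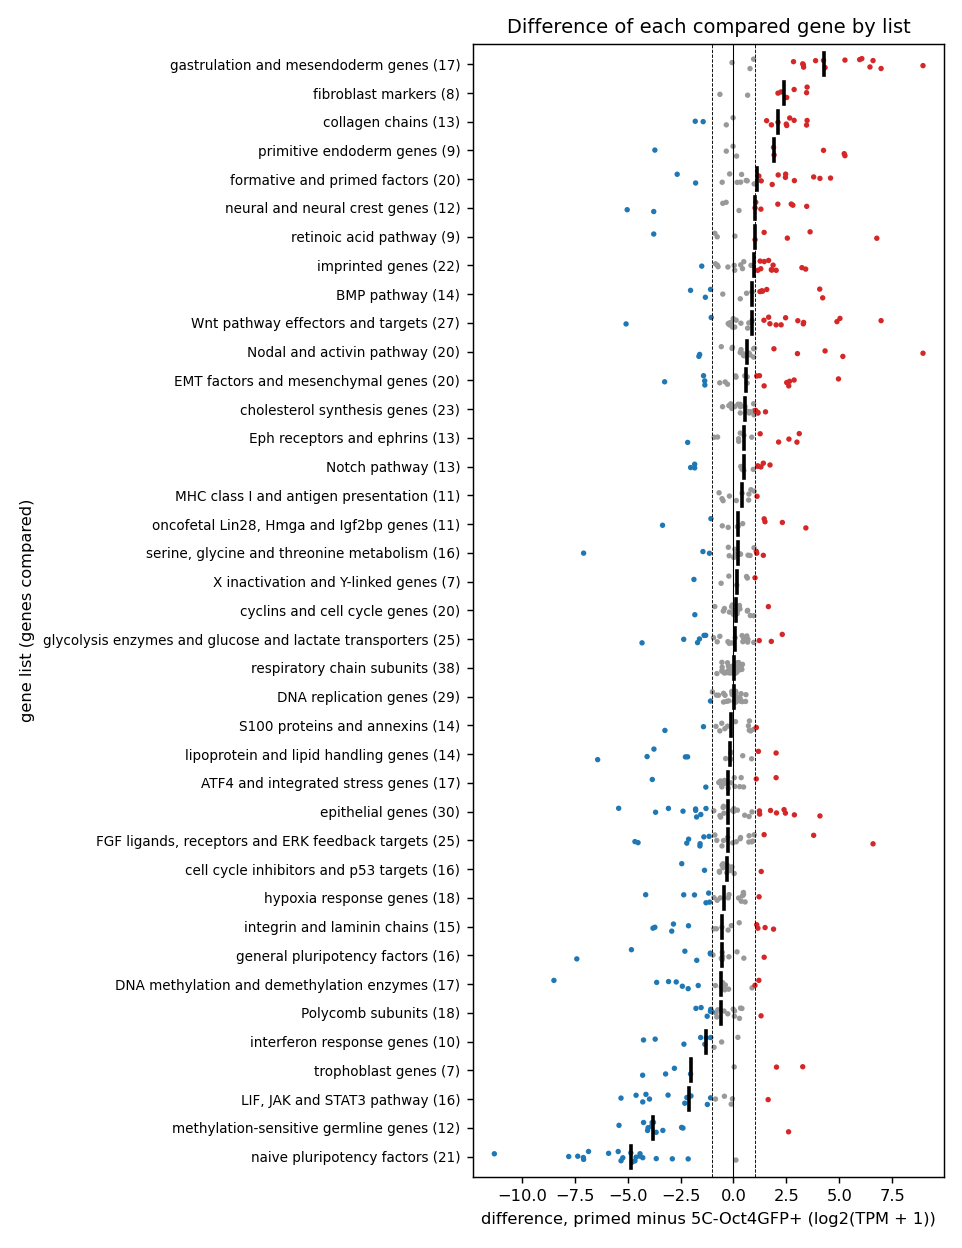
Difference between 5C-Oct4GFP+ (primed) and 5C-Oct4GFP+ cells (x axis, log2(TPM + 1)) of every compared member of the 39 gene lists that had one (y axis, with the number compared in brackets), 1 point per gene and a black bar at the median. Red points are at least 2-fold higher and blue points at least 2-fold lower. The medians run from -4.85 for naive factors to 4.26 for mesendoderm genes.

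The primed cells added N-cadherin and kept E-cadherin. Cdh1 (E-cadherin) had 249 and 284 TPM (ratio 1.14, 1.1 to 1.18) and Epcam 404 and 295 TPM (ratio 0.731, 0.7 to 0.764), whereas Cdh2 (N-cadherin) rose from 1.65 to 81.7 TPM, 49.5-fold higher (36.5 to 68.9), to near its 93.1 TPM in R1 ESCs-primed. Of 20 genes of the epithelial to mesenchymal transition (EMT) and of mesenchyme, 8 were higher and 4 lower. The EMT factor Snai1 had 6.34 and 6.88 TPM (ratio 1.09, 0.75 to 1.58), while Twist1, named after its values were seen, was higher by 1.23 in log2(TPM + 1). Other EMT factors were under the limit of the comparison: Zeb1 had 3.14 and 3.65 TPM, Zeb2 0.62 and 3.84 TPM (ratio 6.19, 3.56 to 11.3) and Snai2 0.27 and 1.87 TPM (ratio 6.93, 2.1 to 36.2). Vim (vimentin) had 333 and 524 TPM (ratio 1.57, 1.5 to 1.65), and Fn1 (fibronectin) fell from 523 to 196 TPM, 2.67-fold lower (2.6 to 2.75). The matricellular genes Ccn2 and Ccn1, known targets of YAP, fell from 178 to 17.8 TPM, 10-fold lower (8.77 to 11.5) and from 304 to 118 TPM, 2.58-fold lower (2.42 to 2.74).

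Epithelial genes were exchanged: 8 of 30 were higher and 9 lower. Krt18, the partner of Krt8, rose from 48.2 to 361 TPM, 7.5-fold higher (6.72 to 8.38), and the tight junction gene Cldn6 from 82.2 to 456 TPM, 5.54-fold higher (5.11 to 6.02). Krt17, a keratin of stratified epithelium, fell from 121 to 1.83 TPM, 65.9-fold lower (41 to 114) and was listed at 0 and 0 in the naive and mES-Oct4GFP+ cells. The claudin Cldn4 fell from 177 to 12.9 TPM, 13.7-fold lower (11.6 to 16.4) and the desmosomal gene Pkp3 from 26.7 to 2.29 TPM, 11.7-fold lower (6.54 to 22.9).

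Several matrix genes and markers of fibroblasts, lists that share members, were higher in the primed cells. In both lists, genes near 0 in the 5C-Oct4GFP+ cells, such as Col5a1, Col1a2 and Col1a1, entered the comparison only through their primed level. They could then only be higher, so the counts say little about members that were not compared. Of 13 collagen chains compared, 9 were higher and 2 lower (median difference 2.11), with Col5a1 rising from 0.97 to 21 TPM, 21.7-fold higher (16.2 to 29.9), Col1a2 from 0.9 to 19.9 TPM, 22.1-fold higher (15.1 to 33.9) and Col1a1 from 1.5 to 13.3 TPM, 8.88-fold higher (6.65 to 12.2). Of 16 fibroblast markers, 8 were compared, of which 6 were higher and none was lower, and 1 and 0 were listed at 0 in the 5C-Oct4GFP+ and primed cells. Their summed level was 21.2 TPM in 5C-Oct4GFP+, 123 in primed, 339 in R1 ESCs-primed, against 464 and 989.7 TPM in the GFP-negative fractions from 5C and mES medium. The part of fibroblasts or feeder cells in the collagen and mesenchymal differences was not tested. Markers of blood, endothelial and muscle cells summed to 0.91, 1.94 and 0.95 TPM in the primed cells. Laminin and integrin chains were exchanged: Lama1, Lama3 (from 45.5 to 2.33 TPM, 19.5-fold lower (15.6 to 24.6)) and Lama4 (from 14.1 to 1 TPM, 14.1-fold lower (9.98 to 20.4)) fell and Lamb1 (from 25.8 to 98.5 TPM, 3.82-fold higher (3.54 to 4.13)) and Itga3 (from 18.8 to 54.7 TPM, 2.92-fold higher (2.63 to 3.23)) rose.

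Among genes of epigenetic control, some subunits of a complex changed and others did not pass the 2-fold limit. Of 17 enzymes of DNA methylation and demethylation, 2 were higher and 7 lower. Dnmt3b, a de novo methyltransferase, rose from 366 to 844 TPM, 2.3-fold higher (2.24 to 2.36), while Dnmt3a had 97.1 and 82.8 TPM (ratio 0.853, 0.801 to 0.908) and the maintenance enzyme Dnmt1 149.8 and 109.7 TPM (ratio 0.733, 0.701 to 0.766). Tet1, which oxidizes 5-methylcytosine, fell from 132 to 23.9 TPM, 5.51-fold lower (5.22 to 5.83), and Tdg, which excises the oxidized bases, rose from 81.3 to 166 TPM, 2.04-fold higher (1.91 to 2.18). Of 18 Polycomb subunits, 6 were lower and 1 higher: the PRC2 core subunits Suz12 and Eed fell from 173 to 59.2 TPM, 2.92-fold lower (2.75 to 3.09) and from 148 to 69.8 TPM, 2.12-fold lower (1.94 to 2.31), whereas the catalytic subunit Ezh2 had 144 and 149 TPM (ratio 1.03, 0.969 to 1.1). Cbx2, of PRC1, rose from 12.3 to 32 TPM, 2.59-fold higher (2.25 to 2.99).

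Most of the compared germline genes that are known to be silenced by promoter methylation were lower. Of 25 found, 12 were compared, of which 11 were lower and 1 higher (median difference -3.81). Over all genes compared, 14.6% were lower and 12% higher. A gene near 0 in the primed cells could enter the comparison only through its starting level and could then only be lower. The count therefore says little about the members that were not compared. Piwil2, a piRNA-binding protein, fell from 22.4 to 0.23 TPM, 97.3-fold lower (46.9 to 243), Sycp3, of the synaptonemal complex, from 13.4 TPM to 0, at least 30.1-fold lower and Hormad1, of the meiotic chromosome axis, from 15.7 TPM to 0, at least 43.7-fold lower. Dazl, an RNA-binding protein of germ cells, had 9.1 TPM in 5C-Oct4GFP+, 0 in primed, 0 in R1 ESCs-primed, 135 in 5C-Oct4GFP+ (naive) and 191 in mES-Oct4GFP+ cells, so that its starting level was already below that of the naive cells. Tdrkh was the member that rose (from 1.21 to 12.4 TPM, 10.3-fold higher (6.58 to 17)).

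Imprinted genes, expressed from 1 parental allele, were higher in 11 of 22 cases and lower in 1. Dlk1 rose from 2.33 to 34.5 TPM, 14.8-fold higher (8.35 to 28.9), Igf2, a growth factor, from 5.94 to 64.4 TPM, 10.8-fold higher (8.59 to 13.8) and Peg3 from 21.4 to 89.8 TPM, 4.2-fold higher (3.92 to 4.5). The maternally expressed RNA genes of the Dlk1 region did not follow Dlk1: Meg3 had 1012 and 561 TPM (ratio 0.554, 0.535 to 0.573) and Rian 1199 and 1000.4 TPM (ratio 0.835, 0.809 to 0.861). H19, the partner of Igf2, had 49.6 and 70 TPM (ratio 1.41, 1.27 to 1.57). The X inactivation RNA Xist fell from 22.2 to 5.36 TPM, 4.14-fold lower (3.6 to 4.8), and Y-linked Eif2s3y had 73.8 and 63.3 TPM in the 2 libraries. The median difference of X-linked genes was 0.08 (n = 391) and that of autosomal genes 0.06 (n = 11127), while 19.4% of X-linked and 11.8% of autosomal genes were higher and 15.6% and 14.5% lower. The medians of single chromosomes with over 100 genes compared ran from -0.07 on chromosome 17 to 0.15 on chromosome 6.

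The lost genes included blocks of neighbouring genes. Runs of at least 6 lower genes, each starting within 300 kb of the last, in which at least 80% of the genes compared were lower, were found at 8 places, with 84 lower genes of 92 compared. This rule was set after the values were seen. Of these runs, 7 held genes named Zfp, most of which encode zinc finger proteins of large, rapidly duplicated families. The pair on chromosome 4, at chr4:145410245-146539395 and chr4:146892406-147809788 (GRCm38), had 13 of 14 and 12 of 13 genes lower. Near-identical copies in such clusters can share reads, so the values of single members are uncertain and the sum over all genes of a run is given. The first run summed to 1649 TPM in 5C-Oct4GFP+, 169 in primed, 185 in R1 ESCs-primed, 2014 in 5C-Oct4GFP+ (naive) and 2103 in mES-Oct4GFP+ cells, 9.74-fold lower in the primed cells. The second summed to 1449, 92, 141, 1789 and 1836 TPM in the same order, 15.7-fold lower. Both primed libraries were thus lowest of these 5 for both runs. The GFP-negative fractions from 5C and mES medium had 728 and 540 TPM for the first run. For the second they had 210 and 77.4 TPM, so the mES-Oct4GFP- library was below both primed libraries there.

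The other runs showed smaller sums. On chromosome 7 (chr7:42473386-43226842) all 9 genes compared were lower, and the sum went from 304 to 22.7 TPM. On chromosome 13 (chr13:62129886-62785808) all 7 were lower and the sum went from 186 to 32.5 TPM. The sums of the runs on chromosome 2, with 8 of 9 and 23 of 28 genes lower, went from 247 to 48.6 and from 600.2 to 142 TPM, and that on chromosome 5 from 309 to 83.8 TPM. The run on chromosome 14, of predicted genes, went from 126 to 1.69 TPM. Over all genes named Zfp and a number, in the runs or not, 67 of 276 compared were lower and 27 higher, with a median difference of -0.07. Over all genes compared, 14.6% were lower and 12% higher. With the lower genes of the runs left out, 37 of 246 genes named Zfp were lower and 27 higher, with a median difference of 0.04. Only genes called lower were left out, so this share of lower genes is reduced by construction. It cannot be set against the share over all genes.

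**Figure D4:**
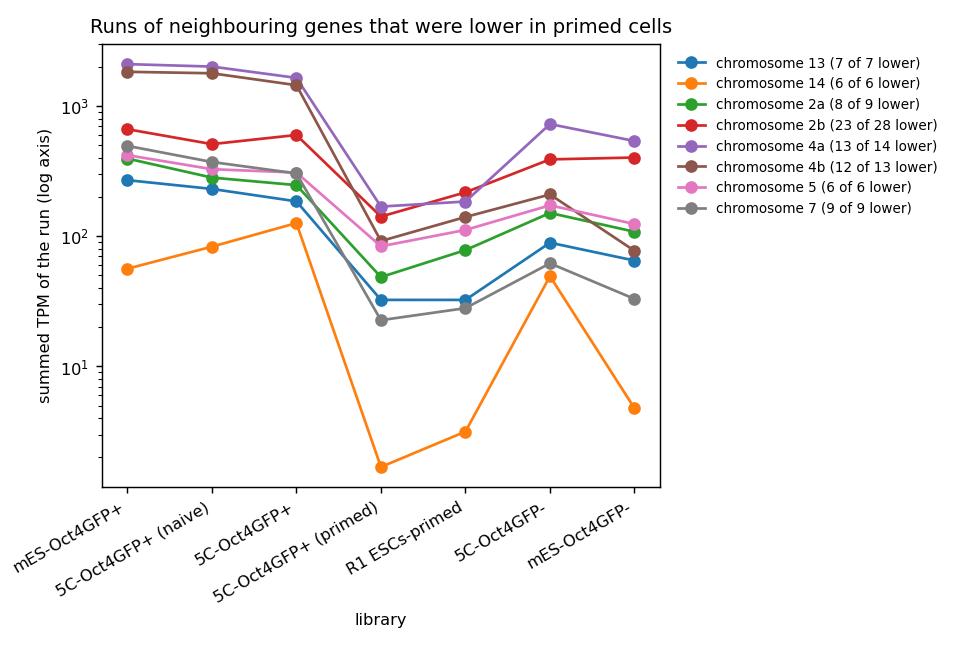
Summed TPM (y axis, log scale) of all genes in each of the 8 runs of lower genes in the 7 libraries (x axis). Each line joins the values of 1 run and the order of libraries carries no scale. In every run the 5C-Oct4GFP+ (primed) library is below the 5C-Oct4GFP+, naive and mES-Oct4GFP+ libraries.

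Single genes of energy metabolism changed. Of 25 glycolysis enzymes and transporters, 3 were higher and 6 lower (median difference 0.08), and the higher ones are 12% of the list, the same share as over all genes compared. The summed level of the 26 genes listed was 19850 TPM in 5C-Oct4GFP+ and 27964 TPM in primed cells. Ldha, which makes lactate from pyruvate, had 662 TPM in 5C-Oct4GFP+, 3279 in primed, 2770.0 in R1 ESCs-primed, 254 in 5C-Oct4GFP+ (naive) and 217 in mES-Oct4GFP+ cells, a 4.95-fold rise (4.82 to 5.1). The lactate transporter Slc16a1 rose from 28 to 99.2 TPM, 3.55-fold higher (3.26 to 3.86). Pfkp, the platelet-type phosphofructokinase, fell from 287 to 13.4 TPM, 21.4-fold lower (18.8 to 24.3), while the liver type Pfkl had 168 and 223 TPM (ratio 1.33, 1.27 to 1.39). Hk1 fell from 51.4 to 19 TPM, 2.7-fold lower (2.42 to 3.02) and Hk2 had 155 and 99 TPM (ratio 0.638, 0.605 to 0.673), and the glucose transporter Slc2a1 had 378 and 222 TPM (ratio 0.587, 0.563 to 0.613). Pdk1, which holds pyruvate out of mitochondria, fell from 233 to 44.9 TPM, 5.19-fold lower (4.77 to 5.66). All 38 nuclear-encoded respiratory chain subunits lay within 2-fold, between -0.78 for Cox6c and 0.43 for Atp5o in log2(TPM + 1).

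Of 18 hypoxia response genes, 6 were lower and 1 higher. Epas1 (Hif2a) fell from 90.5 to 4.16 TPM, 21.7-fold lower (18.3 to 26), whereas Hif1a had 69.8 and 97.1 TPM (ratio 1.39, 1.31 to 1.48), and Vegfa rose from 35.6 to 83.7 TPM, 2.35-fold higher (2.09 to 2.65). Of 16 genes of serine, glycine and threonine metabolism, 3 were higher and 3 lower (median difference 0.20). Tdh, the threonine dehydrogenase, fell from 700.3 to 4.18 TPM, 168-fold lower (119.9 to 242), and Gcat, the next enzyme of threonine breakdown, had 73.6 and 93.2 TPM (ratio 1.27, 1.16 to 1.38). The serine synthesis enzymes Phgdh and Psat1 rose from 121 to 261 TPM, 2.16-fold higher (2.02 to 2.31) and from 168 to 357 TPM, 2.12-fold higher (2.02 to 2.23). Of 23 cholesterol genes, 5 were higher and none was lower, with Sc5d rising from 19 to 56.2 TPM, 2.96-fold higher (2.54 to 3.45) and Hmgcs1 from 209.6 to 468 TPM, 2.23-fold higher (2.15 to 2.32). Of 14 lipoprotein and lipid handling genes, 5 were lower and 2 higher (median difference -0.14). The carriers Apoe (from 2123 to 156 TPM, 13.6-fold lower (12.8 to 14.5)), Apoc1 (from 123 to 0.45 TPM, 273-fold lower (48.6 to 10843)) and Fabp3 (from 482 to 27.6 TPM, 17.5-fold lower (14.6 to 21.1)) fell, the carrier Fabp5 had 313 and 568 TPM (ratio 1.82, 1.71 to 1.93), and the lipoprotein receptor Vldlr rose (from 2.18 to 11.9 TPM, 5.44-fold higher (4.04 to 7.43)).

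Most cell cycle genes differed little. Of 20 cyclins and cell cycle genes and 29 replication genes, 18 and 28 lay within 2-fold. The exceptions were Ccne2 (from 6.17 to 21.5 TPM, 3.49-fold higher (2.53 to 4.96)), E2f1 (from 59.9 to 16.2 TPM, 3.7-fold lower (3.23 to 4.25)) and Pola1, of the priming polymerase (from 78.1 to 36.3 TPM, 2.15-fold lower (1.98 to 2.34)). Of 16 cell cycle inhibitors and p53 targets, 1 was higher (Cdkn2b, from 7.3 to 19.6 TPM, 2.69-fold higher (1.97 to 3.72)) and 2 were lower (Pmaip1, from 17.2 to 2.35 TPM, 7.33-fold lower (5.2 to 10.6), and Cdkn2a, from 32.8 to 12.1 TPM, 2.71-fold lower (2 to 3.7)). Among oncofetal genes, Lin28b rose from 6.05 to 34 TPM, 5.62-fold higher (4.81 to 6.61), Mycl from 4.52 to 58.2 TPM, 12.9-fold higher (10.3 to 16.3) and Hmga2 from 34.8 to 99.5 TPM, 2.86-fold higher (2.63 to 3.11). Mycn fell from 159 to 75.6 TPM, 2.1-fold lower (1.96 to 2.26) and Myc, named after its values were seen and also a retroviral factor, from 211 to 79.7 TPM, 2.66-fold lower (2.45 to 2.88). Of 10 interferon response genes, 7 were lower and none was higher. The antiviral membrane protein genes Ifitm3 and Bst2 fell from 1053 to 54.4 TPM, 19.4-fold lower (16.8 to 22.4) and from 314 to 23.2 TPM, 13.5-fold lower (11 to 16.7), and the RNA sensor Ddx58 (RIG-I) from 48.1 to 8.7 TPM, 5.53-fold lower (4.69 to 6.57). Genes of antigen presentation differed little, with 10 of 11 within 2-fold. Stress genes under Atf4 (417 and 429 TPM (ratio 1.03, 0.985 to 1.07)) were higher in 2 and lower in 2 of 17 cases, and S100 proteins and annexins in 1 and 2 of 14. Neither list exceeded the 12% higher and 14.6% lower of all genes compared.

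The genes chosen by this comparison were last examined in a pair of libraries that it did not use, R1 ESCs-primed and mES-Oct4GFP+. Of the genes higher in the primed 5C-derived cells, 968 (69.5%) were also at least 2-fold higher in R1 ESCs-primed than in mES-Oct4GFP+ cells, against 16.8% of all genes compared, and 27 (1.94%) were at least 2-fold lower. Of the genes that were lower, 986 (58.3%) were at least 2-fold lower in R1 ESCs-primed, against 13.6% of all genes compared, and 124 (7.34%) were at least 2-fold higher. Across the 11582 genes, which are not independent replicates, the 2 differences had a Pearson r of 0.695. The higher genes had a median of 18.9 TPM in primed cells and 18.5 TPM in R1 ESCs-primed. Some lost genes stayed further down in the converted cells than in the cell line: Dppa5a had 0.87 TPM in the primed 5C-derived cells and 143 TPM in R1 ESCs-primed, Bst2 23.2 and 180.3, and Dppa4 0.54 and 13.3. With 1 library of each, the cell line, the retroviruses and the culture cannot be told apart in such a difference.

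**Figure D5:**
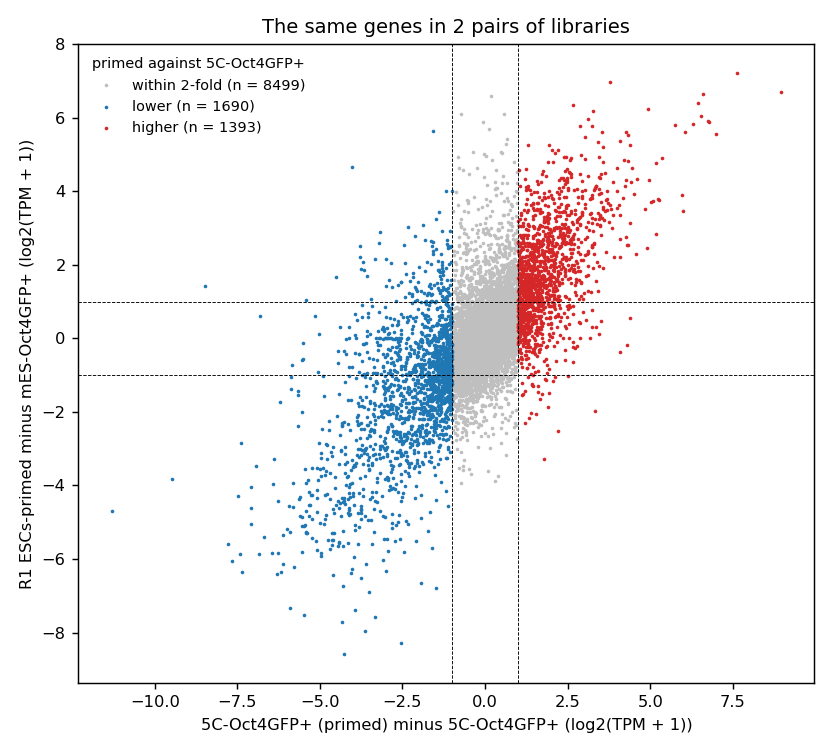
Difference of each gene compared between 5C-Oct4GFP+ (primed) and 5C-Oct4GFP+ (x axis) and between R1 ESCs-primed and mES-Oct4GFP+ (y axis), both in log2(TPM + 1). The pairs share no library, and dashed lines mark a 2-fold difference. Of the red genes 69.5% lie above the upper dashed line, and of the blue genes 58.3% lie below the lower one.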

How the data were processed

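Libraries were sequenced from total RNA of 7 samples, 1 library per group, of which the 2 compared here are 5C-Oct4GFP+ and 5C-Oct4GFP+ (primed). The submitters' processing notes name Bowtie, RSEM and mm10 without versions. The authors deposited 1 table per sample with expected counts (RSEM's estimated reads per gene), TPM and FPKM for 29267 Ensembl genes, which were used as deposited. FPKM values entered an alternative only. Symbols were matched for 28756 genes from a gene name table, and positions and gene classes were taken from GENCODE M21 (GRCm38, the assembly called mm10). Genes encoded by mitochondria and 3 other listed genes found no row and were not analysed here.

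Differences are log2(TPM + 1), primed minus 5C-Oct4GFP+, for genes with at least 5 TPM in either library, computed with Python 3.11.15, pandas 2.3.3 and scipy 1.17.1. Genes were called higher or lower at 2-fold. Count ratios, from expected counts rounded to whole numbers, have exact 95% Clopper-Pearson intervals scaled by the TPM worth of 1 read, and a gene without reads was given a floor of 3 counts. Intervals and floors cover counting error only, and reads without molecular identifiers are not independent molecules. The calculation was tested on simulated counts.

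The genes named are the 15 largest increases and decreases and, in each of 42 lists, the first 6 listed and the 3 largest changes each way, with the exceptions marked. Some genes under this rule are not reported here. Members and lists were chosen with earlier results of these data known. With 1 library per group no p-value was computed.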

Additional observations from a re-analysis of the deposited data

How the results depend on the processing

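The counts of 1393 higher and 1690 lower genes stayed within 1.5 times under all 7 alternatives, between 1041 and 2059 higher and between 1335 and 2419 lower. The lowest counts came from FPKM, and the highest from a minimum of 1 TPM and from no minimum, which gave the same counts because a 2-fold difference on log2(TPM + 1) needs at least 1 TPM. Requiring the exact count interval to lie beyond a ratio of 1 left 1391 and 1683. Higher genes were 45.2% of those called, and between 42.3% and 46.3% under the alternatives. Median-ratio size factors moved the median of all genes from 0.06 to 0.00. No difference of a named gene changed sign when it was at least 2-fold, and 45 of 1209 recomputed gene differences moved by more than the counting interval allows. No paired analysis was possible because each group is 1 library and the labels carry no replicate numbers.

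Depth limits genes with few reads: T and Foxa2 had 2 and 1 reads in the 5C-Oct4GFP+ cells, so their folds are known only within wide intervals. Without replicates, the spread between cultures is unknown for every value given here.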

Other observations

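Many long non-coding RNA genes were lost in the primed cells. Of 167 genes that GENCODE classes as long intergenic RNAs, 81 (48.5%) were at least 2-fold lower in the primed cells and 17 higher, and of 103 antisense genes 38 (36.9%) were lower, against 13.5% of 11035 protein-coding genes. Without a stated strand in the counting, reads of an antisense gene and of its partner cannot be told apart. Of 30 Platr genes in the tables, named as pluripotency-associated transcripts, 17 were compared and all 17 were lower, beside 14.6% of all genes compared. All 17 had at least 5 TPM in the 5C-Oct4GFP+ cells, and most were under 5 TPM in the primed cells. Most thus entered the comparison only through their starting level, and the count does not cover the other Platr genes. Platr10 went from 274 to 44 TPM, Platr16 from 252 to 5.05 TPM, Platr14 from 146 to 50.6 TPM and Platr15 from 99 to 25 TPM. Platr13 and Platr15 had 845 and 879 TPM in the naive cells, above the 78.7 and 99 TPM of the 5C-Oct4GFP+ cells.

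Several further families, chosen after their values were seen, moved one way. All 9 genes named Ly6 that were compared, which encode small membrane-anchored proteins, were lower, among them Ly6a (Sca-1), from 213 to 18.9 TPM, and Ly6e, from 1391 to 327 TPM. Of 17 glutathione transferase genes 11 were lower and none was higher, with Gstp1 going from 527 to 49.6 TPM and Gstm1 from 186 to 45.1 TPM, and close copies in this family can share reads. In the opposite direction, 6 of 7 X-linked Bex and Tceal genes were higher: Bex1 went from 176 to 636 TPM, Bex3 from 367 to 765 TPM and Bex4 from 96.5 to 397 TPM. They lie with other genes at chrX:136033367-136271978 (GRCm38), where 7 of 8 genes compared were higher and the summed level went from 1038 to 2584 TPM, beside 2412 TPM in R1 ESCs-primed. Another run of higher genes, of predicted genes with close copies on chromosome 14, went from 40.4 to 155 TPM.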
